A study of Apis cerana with 76 samples.

Results

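Old (OA) and young (YA) adult workers of Apis cerana, the Asian honey bee, were compared by the miRNAs counted in their small RNA libraries. The deposited stage table gives each group as 1 pooled column of counts. The labels call both groups wild-type adult workers. The authors' sequencing statistics head the OA libraries as forager bees and old adults, and the YA libraries as nurse bees and young adults. Task and age therefore change together between the groups and cannot be told apart. Ages in days and the body part taken for these libraries are not given in the sources used here. The members compared were all table entries with 10 or more counts in OA or YA, which was 139 of 146 entries. The other 7 entries had at most 9 counts in either column: miR-6044-5p had 9 counts in OA and 1 in YA, and miR-31b-5p had 1 in OA and 8 in YA. Just inside the limit lay miR-279b-5p with 11 counts in OA and 5 in YA, and miR-9883-5p with 12 in OA and 8 in YA.

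Each group had 3 libraries. The authors' statistics give 7.91, 7.68 and 19.4 M reads for those of OA and 7.10, 5.90 and 11.4 M reads for those of YA. The deepest OA library held 55.5% of its group's reads, and the deepest YA library 46.7%. The pooled columns held 6088029 counts in OA and 10056957 in YA. Taken as sums over the libraries, these counts were 17.4% of the reads in OA and 41.2% in YA. Whether a column is a sum or a mean is not stated. The YA total was 124% of the mean reads of its libraries and so cannot be a mean, whereas the OA total would be 52.2% of that mean. The part that this difference in miRNA yield plays in the results below was not tested. With 1 column per group there is no spread between replicates and no test, so differences are given as log2 ratios of OA over YA. The 95% intervals beside some of them are exact binomial intervals and cover counting error only.

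miRNAs are short RNAs that guide Argonaute proteins to messenger RNAs, mostly by pairing through the seed, bases 2 to 8 from the 5′ end. miRNAs with the same seed can recognise overlapping sets of targets. A hairpin precursor gives a 5p and a 3p strand, of which usually one is kept. In honey bees a worker usually nurses brood when young and forages when older, and the switch goes with changes in juvenile hormone, nutrition and brain gene expression.

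The sequences below carry the differences described later, written as the authors' table gives them, 5′ to 3′, with the seed in capitals. The first 4 share the seed of the miR-2 family, and the first of them was almost absent from YA.
miR-2944-3p: uAUCACAGcaguaguuaccug
miR-13b-3p: uAUCACAGccauuuuugacgauuu
miR-2a-3-5p: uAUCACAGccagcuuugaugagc
miR-11-3p: cAUCACAGgcagaguucuaguu
The next 4 share the seed of the miR-279 family, in which miR-279b-3p stood apart in OA.
miR-279b-3p: uGACUAGAucgaaauacucguc
miR-279c-3p: uGACUAGAgucacacucgucca
miR-279d-3p: uGACUAGAuccacacucaucc
miR-996-3p: uGACUAGAuacauacucgucu
miR-306-5p and miR-275-3p share a seed and differed in opposite directions.
miR-306-5p: uCAGGUACugagugacucugaga
miR-275-3p: uCAGGUACcugaaguagcgcgcg
In the miR-92 family, miR-92b-3p was the member that was low in OA.
miR-92b-3p: aAUUGCACccgucccggccuga
miR-92c-3p: aAUUGCACucgucccggccug
miR-92d-3p: aAUUGCACucgucccggccugc
miR-92a-3p: uAUUGCACuugucccggccuau
The let-7 complex and the miR-34, miR-277 and miR-317 cluster do not share seeds among their members, and each set differed in 1 direction.
let-7-5p: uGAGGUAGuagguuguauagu
miR-125-5p: cCCCUGAGacccuaacuuguga
miR-100-5p: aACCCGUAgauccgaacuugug
miR-34-5p: uGGCAGUGuuguuagcugguug
miR-277-3p: uAAAUGCAcuaucugguacgac
miR-317-3p: uGAACACAgcuggugguaucuc
Both strands of the miR-14 hairpin are shown because their balance differed between the groups.
miR-14-5p: gGGGGUGAgaaacuggcuuggcu
miR-14-3p: uCAGUCUUuuucucucuccuau

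The OA column differed from the YA column over much of the miRNA set. Levels are in CPM, counts per 1000000 of the column total, after scaling by the trimmed mean of M-values (TMM) over the 18 stage columns, or without it (column totals). A log2 ratio is the difference of log2(CPM + 1), and an entry counts as higher or lower when it is at least 2-fold apart. With TMM, 27 of 139 members were higher in OA (19.4%) and 45 were lower (32.4%), with a median log2 ratio of -0.36. With column totals, 47 were higher (33.8%) and 25 were lower (18.0%), with a median of 0.52. DESeq2 size factors gave 31 higher (22.3%) and 37 lower (26.6%), with a median of -0.14. Before the added 1, TMM moved every ratio down by 0.90 relative to column totals, and 33 members had opposite signs under the 2 scalings. None of them was 2-fold apart in opposite directions, which a shift of 0.90 cannot bring about. The TMM factor of OA, 1.94, was the highest of the 18 columns, against 1.04 for YA. Which scaling is nearer to amounts per cell cannot be read from these columns.

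A core of 52 members (37.4%) was at least 2-fold apart in the same direction under all 3 scalings, 27 higher in OA (19.4%) and 25 lower (18.0%). These are the 27 members called higher with TMM and the 25 called lower with column totals. The words higher and lower are used below for this core unless a scaling is named. The other calls depended on scaling: 20 members were lower with TMM and less than 2-fold apart with column totals, and 20 were higher with column totals and less than 2-fold apart with TMM. Among the 82 members with 50 CPM or more on a side, the core held 13 higher and 19 lower members. The higher and lower members of the core had a median length of 22 bases each, as had all members. U was the first base of 63.0% of the higher and 56.0% of the lower members, against 58.3% of all.

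**Figure D1:**
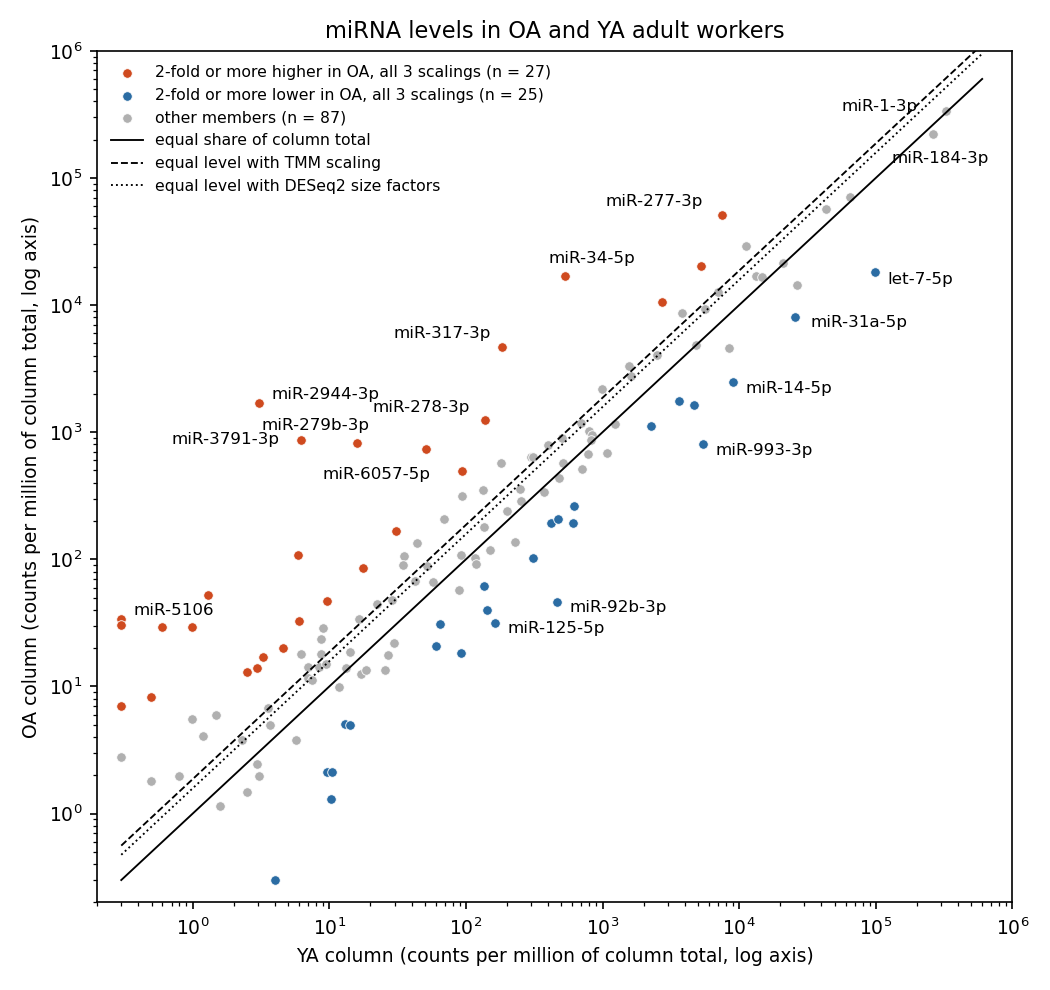
Level of each of 139 miRNA entries in OA (y axis) against YA (x axis), in CPM of the column total on log axes, with entries under 0.3 CPM drawn at 0.3. Orange and blue points are the 27 members higher and the 25 lower in OA under all 3 scalings, and the lines mark equal levels under each scaling, the TMM and DESeq2 lines lying above that of the column totals.

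The 2 most abundant miRNAs were the same in both columns and differed little in share. miR-1-3p, the muscle miRNA of animals, held 33.9% of the counts in OA and 32.6% in YA. miR-184-3p, needed for egg production in Drosophila females, held 22.2% in OA and 26.3% in YA. Together they made up 56.0% of the OA column and 58.9% of the YA column, and the top 5 entries made up 74.0% in OA and 79.4% in YA. miR-277-3p was among the top 5 of OA and not of YA, and let-7-5p among those of YA and not of OA. The log2 ratio of miR-1-3p was -0.84 with TMM and 0.06 with column totals, and that of miR-184-3p was -1.14 with TMM and -0.24 with column totals. miR-133-3p, the other muscle miRNA listed, had 13227 counts in OA and 9992 in YA, a log2 ratio of 0.23 with TMM and 1.13 with column totals. miR-8-3p, a growth regulator in the fat body of Drosophila, had 431286 counts in OA and 645287 in YA, a log2 ratio of -0.76 with TMM and 0.14 with column totals. The call for miR-184-3p and miR-133-3p thus changed with the scaling, and none of miR-1-3p, miR-184-3p, miR-133-3p and miR-8-3p was in the core.

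**Figure D2:**
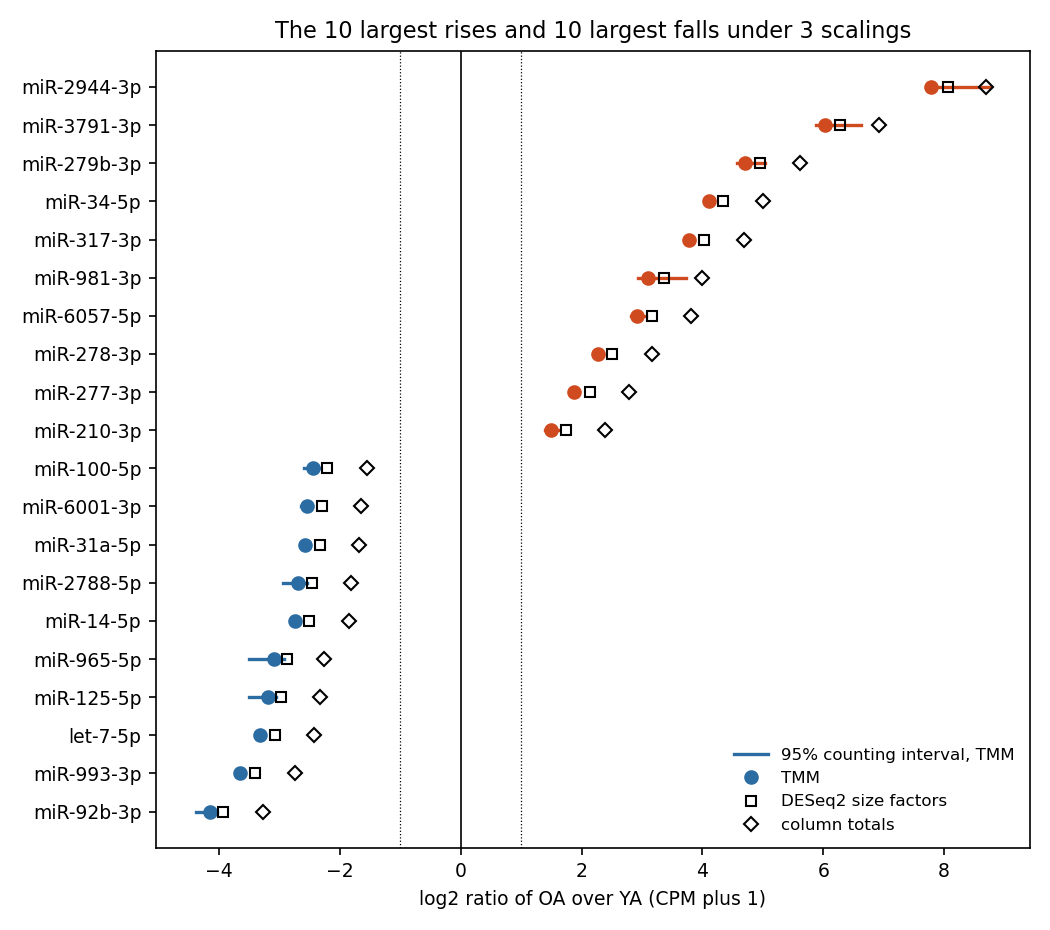
log2 ratio of OA over YA (x axis, CPM + 1) for the 10 largest higher and 10 largest lower members with 50 CPM or more on the higher side, under TMM (filled circles, with the 95% counting interval of the count ratio without the added 1 as a line), DESeq2 size factors (squares) and column totals (diamonds). All 20 lie beyond the dotted lines at 2-fold under each scaling, from 7.79 for miR-2944-3p to -4.16 for miR-92b-3p with TMM.

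The miR-34, miR-277 and miR-317 cluster was higher in OA in all 4 members measured, beside 19.4% of all members. These miRNAs lie close together in insect genomes. In Drosophila miR-34 is an adult miRNA linked to ageing of the brain, and miR-277 regulates the breakdown of branched-chain amino acids. miR-34-5p had 103043 counts in OA and 5312 in YA, or 8714.5 CPM and 507 CPM with TMM. Its log2 ratio was 4.10 with TMM and 4.34 with DESeq2 size factors, with 16925.5 CPM in OA and 528 CPM in YA by column totals, and it held 1.69% of the OA column and 0.0528% of the YA column. miR-317-3p had 28704 counts in OA and 1836 in YA, a log2 ratio of 3.78 with TMM and 4.68 with column totals. miR-277-3p was the most abundant of the 3, with 311932 counts in OA and 74931 in YA. It took 5.12% of the OA column and 0.745% of the YA column, and its log2 ratio was 1.88 with TMM and 2.78 with column totals. The minor strand miR-34-3p had 43 counts in OA and 1 in YA, for which the log2 count ratio was 5.25 with a 95% interval of 2.70 to 10.59 with TMM. The median log2 ratio of the 4 was 2.93 with TMM and 3.78 with column totals, against -0.36 and 0.52 over all 139 members.

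Among the 18 stage columns, each of the 3 main strands was second in OA, behind adult drones (D). miR-34-5p had 27084.1 CPM in adult drones and 1875.5 CPM in adult queens (QA), against the 8714.5 CPM of OA and 507 CPM of YA. miR-277-3p had 96560.5 CPM in adult drones, 26380.5 CPM in OA and 7153.1 CPM in YA, all with TMM. miR-317-3p was lowest of all 18 columns in YA, at 175 CPM, against 2427.5 CPM in OA and 6070.9 CPM in adult drones. In the core, miR-210-3p, miR-3719-3p, miR-216b, miR-251 and miR-34-3p had the same order with TMM, with adult drones first and OA second. For miR-3719-3p column totals put OA first, at 166 CPM against 129.6 CPM in adult drones. The same held for miR-216b, at 86.1 CPM in OA against 56.7 CPM in adult drones. miR-210-3p, which is induced by low oxygen in mammals, had 3027 counts in OA and 943 in YA, a log2 ratio of 1.50 with TMM and 2.39 with column totals. It stood at 256 CPM in OA, 90.0 CPM in YA and 1594.0 CPM in adult drones.

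The largest differences were in miRNAs that are abundant in the egg. The list of egg-abundant miRNAs was chosen on egg levels of these data and is not independent evidence of what the egg holds. Of its 5 members, 4 were higher in OA, beside 19.4% of all members. The fifth, miR-279b-5p, had 11 counts in OA and 5 in YA. miR-2944-3p, a miRNA known from early embryos of mosquitoes, had 10321 counts in OA and 31 in YA. Its log2 ratio was 7.79 with TMM and 8.70 with column totals, the largest of all members, and the counting interval with TMM was 7.70 to 8.76. miR-3791-3p had 5299 counts in OA and 62 in YA, a log2 ratio of 6.02 with TMM and 6.93 with column totals. miR-279b-3p had 5039 counts in OA and 161 in YA, at 4.71 with TMM and 5.61 with column totals. miR-3478-3p was rarer, with 177 counts in OA and 6 in YA, at 3.34 with TMM and 4.24 with column totals. The median over the list was 4.71 with TMM and 5.61 with column totals.

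Across the stage columns these miRNAs were low in most larvae and pupae. miR-2944-3p had 26337.0 CPM in the egg (E), 709 CPM in the L1 larvae, 33.9 CPM in the L5 larvae and 8.30 CPM in the R pupae, with TMM. It had 873 CPM in OA, 2.96 CPM in YA, 3.12 CPM in adult drones and 37.8 CPM in adult queens. OA was thus second only to the egg. miR-3791-3p had 448 CPM in OA and 5.92 CPM in YA. With TMM, the egg, at 2650.7 CPM, and the QDR queen pupae, at 629 CPM, were above OA, and YA was the lowest of the 18 columns. With column totals OA, at 870.4 CPM, was above the QDR queen pupae, at 553 CPM. YA, at 6.16 CPM, was then above the DR pupae, at 5.67 CPM. Other core members that were highest in the egg and close to the top in OA were miR-6045-5p, with 321 counts in OA and 13 in YA, miR-6040-5p, with 184 in OA and 1 in YA, and miR-2a-2-5p, with 179 in OA and 10 in YA.

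**Figure D3:**
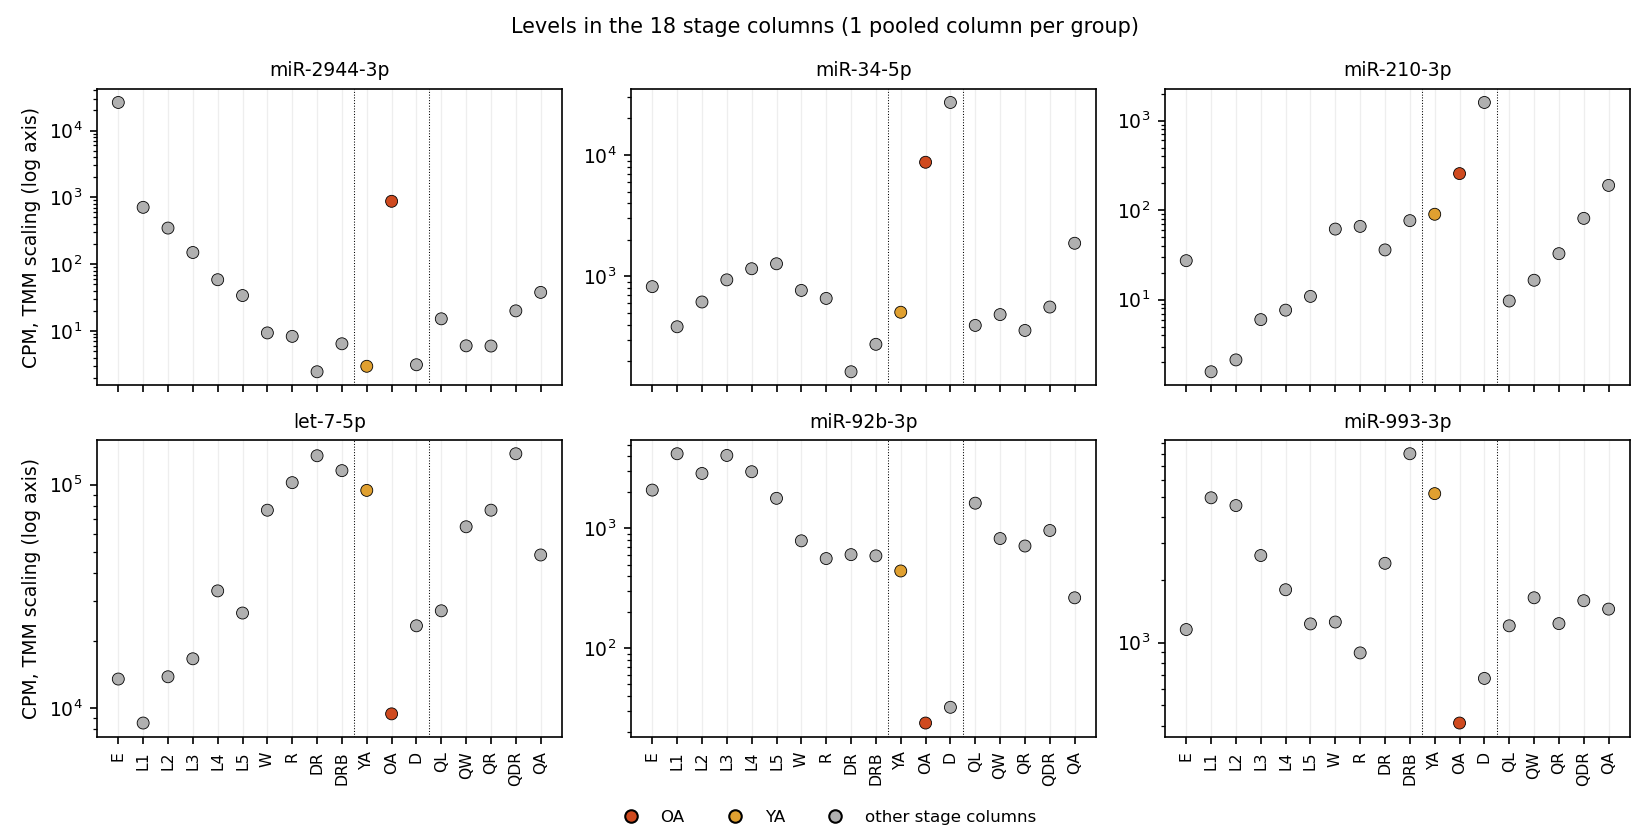
Levels of 6 miRNAs in the 18 stage columns, in CPM with TMM scaling on log axes, 1 point per pooled column, from egg (E) through L1 to L5 larvae, W to DRB pupae, adult workers (YA, OA) and adult drones (D) to queens (QL to QA). OA is second to the egg for miR-2944-3p (873 CPM in OA, 26337.0 CPM in the egg) and second to adult drones for miR-34-5p. It is the lowest column for miR-92b-3p (23.8 CPM) and miR-993-3p (412 CPM), for both of which adult drones are lower with column totals.

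The organ table of the same study gives worker brain (WB), ventriculus, that is midgut (WV), rectum (WR), ovary (WO) and venom gland (Wvenom), each as 1 pooled column. Of the members, 60 had the same name and sequence there. Shares of the organ totals are given beside the adult columns and were not compared with them in level. miR-2944-3p had 118869.9 CPM in worker ovary, against 42.6 to 325 CPM in the other 4 worker organs. miR-279b-3p had 26985.1 CPM in ovary and 43.7 to 455 CPM elsewhere. miR-6045-5p had 3083.4 CPM in ovary and at most 16.3 CPM elsewhere, and miR-6000-5p, with 80 counts in OA and 25 in YA, had 1580.1 CPM in ovary and at most 10.8 CPM elsewhere. An entry for miR-3791-3p that is 1 base shorter had 82117.8 CPM in ovary and at most 1068.0 CPM elsewhere. Of the 8 core members higher in OA that matched, 5 were highest in ovary, 2 in brain and 1 in venom gland. Among all 60 matched members ovary was highest for 22 (36.7%), and among the 13 matched lower ones for 5 (38.5%). Ovary-high members thus lay on both sides: miR-92b-3p, whose log2 ratio of CPM + 1 with TMM was the lowest of the members, had 3740.5 CPM in ovary and at most 181 CPM in the other worker organs. In bulk RNA, more cells of a type and more RNA per cell cannot be told apart, and what ovary contributes to the OA column was not tested.

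OA had less of the let-7 complex, with 3 of its 4 entries lower in the core, beside 18.0% of all members. let-7, miR-100 and miR-125 come from a shared precursor in Drosophila, where they rise at metamorphosis and help neurons and muscles take on adult form. let-7-5p had 111058 counts in OA and 987681 in YA, or 9392.3 CPM and 94285.9 CPM with TMM. It held 1.82% of the OA column and 9.82% of the YA column, with a log2 ratio of -3.33 with TMM and -2.43 with column totals. miR-125-5p had 192 counts in OA and 1646 in YA, a log2 ratio of -3.20 with TMM and -2.34 with column totals. miR-100-5p had 630 counts in OA and 3086 in YA, at -2.45 with TMM and -1.56 with column totals. The fourth member, the minor strand miR-100-3p, had 76 counts in OA and 171 in YA and was at -1.22 with TMM and -0.42 with column totals, outside the core. The median of the 4 was -2.82 with TMM and -1.95 with column totals.

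OA was the lowest of the 18 columns for miR-125-5p, at 16.2 CPM, and for miR-100-5p, at 53.3 CPM, with TMM. For let-7-5p the L1 larvae were lower, at 8542.8 CPM against 9392.3 CPM in OA. With column totals the L1, L2 and L3 larvae were lower, at 6735.7, 10414.1 and 9576.3 CPM against 18242.0 CPM in OA. With TMM the YA column, at 94285.9 CPM, lay within the range of the W to DRB pupal columns. These held 76845.1 CPM in W to 134822.1 CPM in DR. Adult drones had 23309.3 CPM of let-7-5p and 105 CPM of miR-100-5p, also below YA, which had 295 CPM of miR-100-5p. In worker organs let-7-5p had 13552.4 CPM in ovary and 45076.1 CPM in ventriculus, the lowest and highest of the 5.

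Both strands of miR-993 were lower in OA, and they are the Hox cluster members in the core. miR-993-3p had 4869 counts in OA and 54204 in YA, a log2 ratio of -3.65 with TMM and -2.75 with column totals. miR-993-5p had 13 counts in OA and 97 in YA, at -2.29 with TMM and -1.76 with column totals. miR-iab-4-5p, which lies in the bithorax part of the Hox genes in Drosophila, had 110 counts in OA and 88 in YA and was less than 2-fold apart under each scaling, and miR-iab-8-3p was under 10 counts in both columns. The median of the 3 measured was -2.29 with TMM and -1.76 with column totals. miR-10a-5p, which the list does not hold under that name, had 28172 counts in OA and 84747 in YA, at -1.76 with TMM and -0.86 with column totals. miR-3785-3p shares the seed of miR-10a-5p and was lower, with 9890 counts in OA and 46593 in YA, at -2.41 with TMM and -1.51 with column totals. Across the stage columns with TMM, miR-993-3p was lowest in OA, at 412 CPM, and second highest in YA, at 5174.4 CPM, behind DRB pupae with 8033.9 CPM. With column totals adult drones were lower, at 685 CPM against 799.8 CPM in OA.

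Members of the metabolism and insulin list went both ways. miR-278-3p, which sets insulin response in Drosophila, had 7587 counts in OA and 1387 in YA, a log2 ratio of 2.27 with TMM and 3.17 with column totals. miR-375-3p, known from insulin-secreting islet cells of mammals, had 64556 counts in OA and 27583 in YA, at 1.05 with TMM and 1.95 with column totals. miR-277-3p was the third higher member of the list. miR-14-5p was lower, with 15026 counts in OA and 89877 in YA, at -2.75 with TMM and -1.86 with column totals. miR-33-3p, which acts on lipids in mammals, had 820 counts in OA and 442 in YA, at 0.70 with TMM and 1.59 with column totals. Of the 7 members, 3 were higher and 1 was lower under all 3 scalings, beside 19.4% and 18.0% of all members. The list's median was 0.70 with TMM and 1.59 with column totals, against -0.36 and 0.52 over all members.

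The strands of the miR-14 hairpin, which acts on cell death and fat metabolism in Drosophila, moved apart. miR-14-3p had 176158 counts in OA and 111820 in YA, a log2 ratio of 0.48 with TMM and 1.38 with column totals, while miR-14-5p was lower. The 5p strand thus made up 7.86% of the hairpin's counts in OA (95% interval 7.74% to 7.98%) and 44.6% in YA (44.3% to 44.8%). Such a share does not depend on scaling. The 3p strand exceeded the 5p strand in log2 ratio by 3.24. Among the 11 hairpins with 100 or more counts in each strand over both columns, 5 had strands at least 1 apart on the log2 scale. In miR-965 the 5p share was 56.9% in OA (49.6% to 63.9%) and 87.3% in YA (85.2% to 89.3%), and in miR-927a it was 41.7% in OA (40.0% to 43.5%) and 64.9% in YA (63.8% to 66.0%). In miR-100 it was 89.2% in OA and 94.7% in YA. miR-993 was the fifth, with a 5p share of 0.266% in OA and 0.179% in YA, whose intervals overlapped. In miR-275 the 5p share was 9.83% in OA and 10.4% in YA, and in miR-281 it was 50.1% in OA and 50.9% in YA, with overlapping intervals in both. In miR-71 it was 85.1% in OA (84.1% to 86.1%) and 87.7% in YA (87.1% to 88.3%), a small difference whose intervals did not overlap. In miR-29b it was 26.8% in OA (22.9% to 31.0%) and 40.4% in YA (37.9% to 42.9%). miR-3786 went the other way, with 22.9% in OA (22.1% to 23.8%) and 16.2% in YA (15.4% to 17.0%). In miR-6000 it was 31.2% in OA and 21.6% in YA, with overlapping intervals.

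Members that share a seed could stand far apart. There were 17 shared seeds with 40 members, and 5 of these seeds had members at least 2 apart on the log2 scale with TMM. The miR-2 group, with the seed of the first 4 sequences above, held 16927 counts in OA and 14186 in YA, a log2 ratio of 0.08 with TMM and 0.98 with column totals. Within it, miR-2944-3p was 61.0% of the counts in OA (95% interval 60.2% to 61.7%) and 0.219% in YA (0.149% to 0.310%). miR-13b-3p, a canonical member of the family, was 18.4% in OA and 49.8% in YA. The 23-base entry of miR-2a-3-5p was 15.7% in OA and 33.9% in YA, and miR-11-3p, an inhibitor of pro-apoptotic genes in Drosophila, was 4.90% in OA and 16.1% in YA. miR-13b-3p had 3113 counts in OA and 7068 in YA, so its ratio was -1.35 with TMM and -0.46 with column totals.

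In the miR-279 group, which in Drosophila represses the formation of carbon dioxide sensing neurons, miR-279b-3p was 32.9% of the counts in OA and 1.57% in YA. miR-279d-3p was 22.9% in OA and 50.1% in YA, and miR-996-3p was 31.7% in OA and 39.2% in YA. The group held 15304 counts in OA and 10266 in YA, a log2 ratio of 0.40 with TMM and 1.30 with column totals. miR-306-5p was 92.0% of its seed group in OA and 59.2% in YA, and the rest was miR-275-3p, a miRNA required for blood digestion and egg development in the mosquito Aedes aegypti. miR-306-5p was higher, with 124084 counts in OA and 52696 in YA, at 1.06 with TMM and 1.96 with column totals. miR-275-3p was lower, with 10774 counts in OA and 36374 in YA, at -1.93 with TMM and -1.03 with column totals. In the miR-92 group, miR-92b-3p was 3.69% in OA and 30.5% in YA, and miR-92d-3p was 76.0% in OA and 55.7% in YA. miR-92b-3p had 282 counts in OA and 4627 in YA, at -4.16 with TMM and -3.28 with column totals. miR-92c-3p differs from it by 1 base, C9U (miR-92b-3p first, counted from the 5′ end), and is 1 base shorter. It had 1468 counts in OA and 2026 in YA, at -0.64 with TMM and 0.26 with column totals. miR-92c-3p is also miR-92d-3p without its last base, so reads could be split between these 2 entries. Its counts were 25.3% of those of miR-92d-3p in OA and 23.9% in YA.

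**Figure D4:**
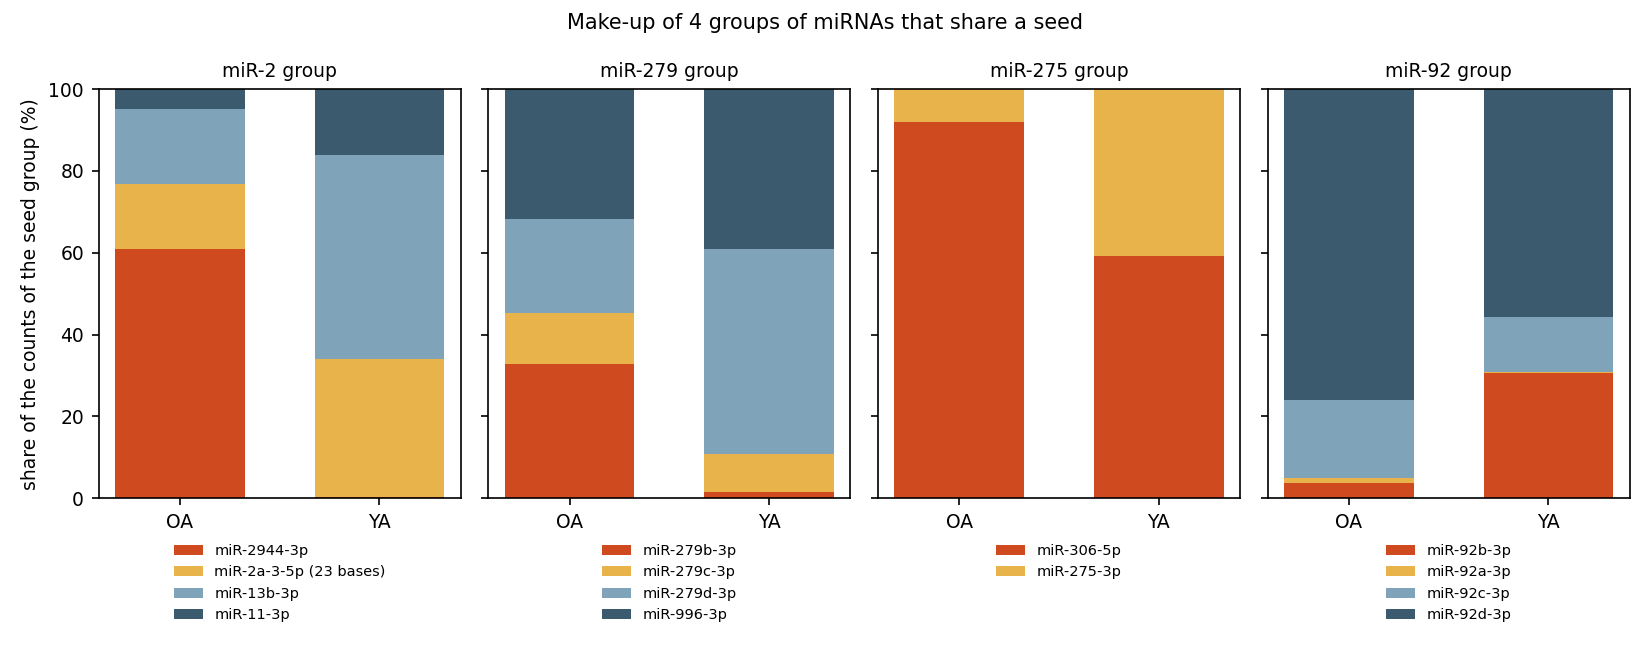
Make-up of 4 groups of miRNAs that share a seed, as the share of the group's counts (y axis, percent) in OA (left bar) and YA (right bar) of each panel, 1 pooled column each. miR-2944-3p fills 61.0% of the miR-2 group in OA and 0.219% in YA, and miR-92b-3p 3.69% of the miR-92 group in OA and 30.5% in YA.

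Most listed neural miRNAs differed by less than 2-fold or depended on scaling, as did 87 of all 139 members. Of 14 measured, miR-210-3p was higher and miR-263a-5p was lower, beside 19.4% and 18.0% of all members. The list's median was -0.47 with TMM and 0.40 with column totals, near the medians of all members. miR-263a-5p, which protects sensory bristle cells in Drosophila, had 1603 counts in OA and 6257 in YA, at -2.13 with TMM and -1.24 with column totals. Among worker organs miR-263a-5p was lowest in brain, at 208 CPM, and highest in rectum, at 4375.0 CPM. An entry for miR-210-3p that is 2 bases shorter had 2287.2 CPM in brain and at most 48.8 CPM in the other worker organs. miR-2796-3p had 37897.2 CPM in worker brain and at most 835 CPM in the other worker organs. It had 52399 counts in OA and 38019 in YA, a log2 ratio of 0.29 with TMM and 1.19 with column totals. miR-124-5p, the minor strand of the pan-neuronal miR-124, had 71 counts in OA and 70 in YA. miR-9-5p had 87304 counts in OA and 267643 in YA, at -1.79 with TMM and -0.89 with column totals, just outside the core. miR-7-5p, a photoreceptor miRNA in Drosophila, had 29521 counts in OA and 48886 in YA, at -0.90 with TMM and -0.00 with column totals.

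In the gut and excretory list 3 of 9 members were lower and none was higher under all 3 scalings, where 18.0% of all members were lower and 19.4% higher. The list's median was -0.38 with TMM and 0.52 with column totals, against -0.36 and 0.52 over all members. miR-31a-5p had 49100 counts in OA and 259550 in YA, at -2.58 with TMM and -1.68 with column totals. Among worker organs it had 196078.2 CPM in rectum and at most 3024.3 CPM in the others. The other lower members were both strands of the miR-275 hairpin. An entry for miR-275-3p that is 1 base shorter was highest in ovary, at 18311.4 CPM, with at most 7300.5 CPM in the other worker organs. miR-281-5p, with 7451.4 CPM in ventriculus the highest there of the worker organs, had 3911 counts in OA and 3110 in YA, at 0.16 with TMM and 1.05 with column totals. Outside the list, miR-2765-5p had 22386.8 CPM in ventriculus and at most 110.5 CPM in the other organs, and was lower, with 190 counts in OA and 650 in YA. miR-2788-5p had 1328.6 CPM in ventriculus and at most 125 CPM elsewhere, and was lower, with 242 counts in OA and 1440 in YA. Among the matched members of the core, 3 of the 13 lower ones were highest in ventriculus and 2 in rectum, and 0 of the 8 higher ones were highest in either. Among all 60 matched members, 7 (11.7%) were highest in ventriculus and 9 (15.0%) in rectum, and with 8 and 13 members nothing is read from the difference. The part that amounts of gut and rectum play was not tested.

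Over all 139 members 52 (37.4%) were in the core, and the remaining lists are given beside that share. In the mir-71/mir-2 cluster, 2 of 8 entries were higher, miR-2a-2-5p and the 22-base entry of miR-2a-3-5p with 199 counts in OA and 60 in YA. The median of that list was -0.62 with TMM and 0.24 with column totals. In growth and apoptosis, 1 of 7 was higher (miR-278-3p) and 1 lower (miR-14-5p), with a median of 0.10 with TMM and 0.99 with column totals. bantam-3p, which promotes growth in Drosophila, had 100951 counts in OA and 146472 in YA, at -0.71 with TMM and 0.19 with column totals. None of the 3 ovary and germline entries was in the core, and none of the 3 entries of the miR-12, miR-283 and miR-3477 cluster was. The ovary and germline list does not stand for the ovary-high members given above. Among worker organs bantam-3p was lowest in ovary, at 6253.0 CPM, and miR-184-3p was highest in brain, at 660279.8 CPM. Only miR-989-3p was highest in ovary, at 32416.2 CPM. miR-989-3p, which acts in ovarian border cells of Drosophila, had 20118 counts in OA and 15783 in YA, at 0.18 with TMM and 1.07 with column totals. miR-12-5p had 129382 counts in OA and 210482 in YA, at -0.88 with TMM and 0.02 with column totals. The miR-927 family, the miR-193 and miR-2788 pair and the miR-92 family had 1 lower member each, and the miR-252 family had none.

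**Figure D5:**
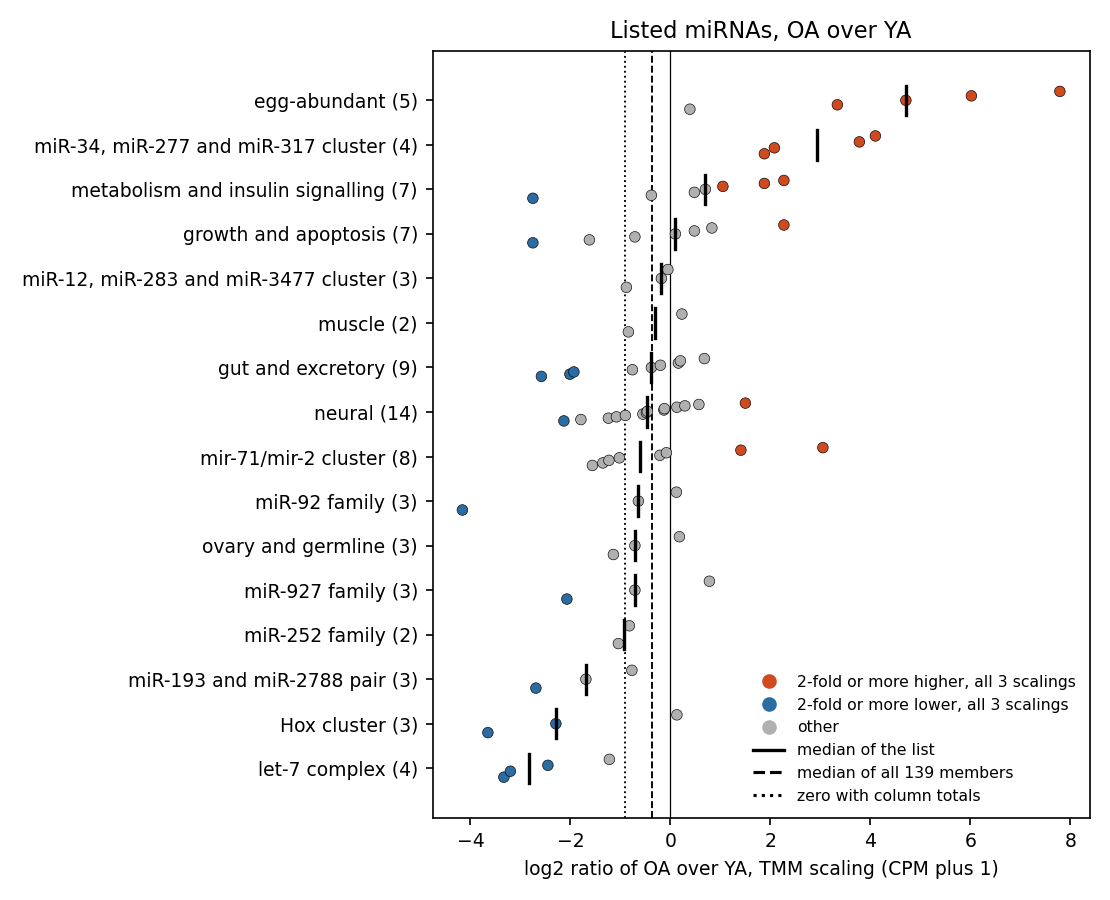
log2 ratio of OA over YA with TMM (x axis, CPM + 1) for the measured members of 16 lists (rows, with the number measured), 1 point per entry, with the list's median as a black bar. The dashed line is the median of all 139 members (-0.36) and the dotted line is where 0 lies with column totals. The egg-abundant list and the miR-34, miR-277 and miR-317 cluster lie to the right and the let-7 complex to the left.

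Further members of the core were named by size or by absence. miR-6057-5p had 4452 counts in OA and 515 in YA, at 2.91 with TMM and 3.81 with column totals, and miR-981-3p had 662 counts in OA and 59 in YA, at 3.10 with TMM and 3.36 with DESeq2 size factors. For both, OA was the highest of the 18 columns with TMM. miR-965-5p had 112 counts in OA and 923 in YA, at -3.09 with TMM and -2.26 with column totals. miR-6001-3p had 1184 counts in OA and 6150 in YA, at -2.54 with TMM and -1.65 with column totals. miR-5106 had 207 counts in OA and 0 in YA, so it was at least 61.1-fold higher in OA with TMM, or 114-fold with column totals, against a floor of 3 counts in the YA column. The exact counting interval, which sets its own limit for a count of 0, had a lower end of 5.62 on the log2 scale with TMM and 6.52 with column totals. miR-5106 was also at 0 in every other stage column except adult drones, at 2.30 CPM, though the shallow adult queen column could miss it. In the opposite direction miR-9884-3p had 1 count in OA and 40 in YA, a log2 count ratio of -5.50 (-10.84 to -2.94) with TMM. With TMM, OA was the lowest of the 18 columns for 25 of 139 members and the highest for 4. With column totals it was the lowest for 4 and the highest for 16. An order among the 18 columns therefore depends on the scaling.

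OA and YA were set beside the 7 pairs of successive columns within the L1 to L5 larvae and within the W to DRB pupae. OA and YA stood further apart than any of these pairs. After each pair's median was subtracted, the median absolute log2 ratio was 0.93 for OA over YA and 68 of 139 members (48.9%) were at least 2-fold from the median. For those 7 pairs (L2 over L1 to L5 over L4, and R over W to DRB over DR) the median absolute ratio was 0.26 to 0.64, and 7.19% to 32.0% of members were at least 2-fold from the median. For 54 of 137 members the OA over YA ratio was larger than in any of those pairs in which the member had a value. Not every member had a value in each pair, and L5 over L4 had 125. Each pair is 1 pooled column against 1, and the time between columns is not given, so these values describe the columns without a test.

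Some entries are near-identical to a more abundant one, so that the authors' counting could split reads between them. This held for 10 entries, whose values are uncertain. miR-98 differs from let-7-5p by G11A and had 13 counts in OA and 106 in YA, 0.0117% of let-7-5p in OA and 0.0107% in YA. miR-72-5p differs from miR-31a-5p by C12U and had 30 counts in OA and 143 in YA. Both were lower with their partners and add no separate evidence. In these substitutions the partner's base comes first and positions count from its 5′ end. miR-200b-3p (A17U against miR-8-3p), miR-216b (G22A against miR-283-5p) and miR-251 (A21U against miR-252a-5p) were higher while their partners were not. The name miR-2a-3-5p stands for both a 23-base and a 22-base entry with different seeds, which are kept apart here by length.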

How the data were processed

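Small RNA libraries of OA and YA adult workers (3 each) were compared. Per the labels' protocols, RNA came from dissected, flash-frozen material by Trizol, and 1 ug of it went into small RNA libraries for Illumina. bcl2fastq and kallisto appear in the submitters' processing notes with no version. A genome build and other settings are not given in the sources used here. The authors deposited read counts per miRNA entry with 1 pooled column per group, so the comparison of miRNAs has no test. Total reads per library come from the authors' deposited statistics. The library names there show the group but not which labelled sample they are, so the planned permutation test of reads and GC content (percent, deposited there too) was not run.

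Entries with 10 or more counts in OA or YA were kept. Counts were scaled with TMM (edgeR 4.0.16) or size factors (DESeq2 1.42.0) over the 18 stage columns in R 4.3.3, or by column totals. The log2 ratio, OA over YA, is of CPM + 1, and a call is 2-fold or more. Intervals are exact binomial (Clopper-Pearson, 95%), from scipy 1.17.1 in Python 3.11.15, and cover counting error only, since reads without molecular identifiers are not independent molecules. Zero counts were set against a floor of 3 counts per column. The calculation was tested on simulated data. The replicates are samples named apart by the labels, which do not say whether they are separate colonies.

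Named entries were the 5 with the largest share in either column, the 10 largest rises and 10 largest falls called under all 3 scalings with at least 50 CPM on the higher side, list members, and the other strand of any named. Entries outside this rule (among them miR-306-5p, miR-5106, miR-10a-5p, miR-3785-3p, miR-2765-5p, miR-6045-5p, miR-166-3p and the near-identical and seed-sharing entries) were chosen after their values were seen. The members and lists were chosen with earlier results of these data known. Alternatives tried were the scalings, the pseudocount and the filter.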

Additional observations from a re-analysis of the deposited data

How the results depend on the processing

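The total of 72 members called with TMM was 72 with column totals, 68 with DESeq2 size factors and 68 with TMM of OA and YA alone, but its split moved. Higher and lower members numbered 27 and 45 with TMM, 47 and 25 with column totals, 46 and 26 with column totals that leave out miR-1-3p and miR-184-3p, 31 and 37 with DESeq2 size factors, and 36 and 32 with TMM of the 2 columns alone. The median log2 ratio of -0.36 was 0.52, 0.42, -0.14 and 0.00 under those 4 alternatives in the same order, which follows from their factors. A pseudocount of 10 CPM left 19 higher and 30 lower, and 0.25 CPM gave 29 and 49. The median was -0.18 with a pseudocount of 10 CPM, -0.46 with 10 counts required in both columns and -0.71 with 50 CPM required in a column. That last filter left 82 members, of which 13 were higher and 45 were called in all. Of 79 named entries, 42 were called with TMM, and none of these was called in the opposite direction under the 6 scaling and pseudocount alternatives. This outcome was fixed in advance, since no scaling shifts a ratio far enough and a pseudocount cannot change its sign. Column totals lost 12 of the 42 calls and gained 11 others, and a pseudocount of 10 CPM lost 7 and gained none.

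No paired analysis was possible because the pooled columns carry no replicates; leaving out libraries and the replicate block were not run for the counts for the same reason. Depth limits entries near 10 counts. With TMM, 123 of 139 counting intervals excluded 0, but the intervals take the scaling as known. That of miR-1-3p was -0.85 to -0.84 with TMM and 0.05 to 0.06 with column totals.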

Other observations

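Among the core members lower in OA is miR-166-3p, an entry with the name of a plant miRNA family. It had 8 counts in OA and 103 in YA, a log2 ratio of -2.69 with TMM and -2.28 with column totals. Its sequence in the table is uCGGACCAggcuucauucccc, with bases 2 to 8 in capitals. Across the stage columns it was highest in L3 larvae, at 155 CPM, with 72.7 CPM in L4 and 30.5 CPM in L1 larvae. It had 0.677 CPM in OA, 9.83 CPM in YA, 0.353 CPM in adult drones and 0 counts in R pupae, QDR pupae and adult queens. Its source was not tested.

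miR-315-5p, which promotes Wingless signalling in Drosophila, was lower, with 6856 counts in OA and 22893 in YA, at -1.91 with TMM and -1.01 with column totals. miR-927a-5p had 3023.3 CPM in worker brain and at most 618 CPM in the other worker organs, and was lower, with 1254 counts in OA and 4710 in YA. miR-3719-3p, also highest in brain (236 CPM, at most 97.6 CPM elsewhere), was higher, with 1012 counts in OA and 312 in YA. Brain-high members of the core were thus found on both sides.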
